A study of Caenorhabditis elegans with 2 samples.

Results

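The genes described here encode nuclear subunits and assembly factors of mitochondrial oxidative phosphorylation and subunits of the vacuolar proton pump, the V-ATPase. They were defined by symbol, as nuclear protein-coding genes of the nuo, gas, cox, cyc, atp, sdh, ucr, isp, asb, asg, cco and vha series, plus unc-32. These gene families were chosen with earlier results of these data known. The rule found 65 of 19973 nuclear protein-coding genes of Caenorhabditis elegans. Of these, 27 encode subunits of the respiratory chain, 8 encode assembly factors of complex IV, 9 encode ATP synthase subunits and 21 encode V-ATPase subunits. No gene of the cco or sdhc series carries such a symbol in this annotation. Some genes of these complexes have other symbols, such as nduf-7 and mev-1, and fall outside the rule.

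The series is a ChIP-seq experiment on whole L4 larvae of strain OP231, with pooled males and females. The worms carry unc-119(ed3) on chromosome III and the integrated transgene wgIs231, from which ZK546.5 is made with a C-terminal GFP-FLAG tag. The sources used here do not name the promoter of the transgene. There is 1 group of 2 biological replicates. Control libraries were not analysed here, so values are set against those of all nuclear protein-coding genes. The authors deposited 30000 regions for each replicate and for both replicates pooled, and an IDR set (regions ranked reproducibly across replicates) of 92. The pooled list and each replicate list hold peaks together with background regions, so a listed region is not in itself a called peak.

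Each signal value is that of the authors' peak caller, on a scale that these sources do not name, and the depth of the libraries is unknown. The median signal was 12.7 in the pooled list, 8.98 in replicate 1 and 6.39 in replicate 2. Signals are therefore compared only within a list, and between lists by rank, where rank 1 is the highest signal. All 92 IDR regions were the top 92 regions of the pooled list. The last of them had a signal of 36.14 and the first region outside the set had 36.07.

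Oxidative phosphorylation passes electrons from nutrients through complexes I to IV of the inner mitochondrial membrane and stores the energy as a proton gradient, which ATP synthase uses to make ATP. Complex II is wholly nuclear-encoded, while the other complexes combine nuclear subunits with subunits made from mitochondrial DNA. The V-ATPase works in the other direction: its cytosolic V1 sector splits ATP and its membrane V0 sector pumps protons into lysosomes and other compartments or out of the cell. In C. elegans several V-ATPase subunits have paralogues used in different tissues.

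Listed regions near these genes were common, and strong ones were few. A pooled-list summit lay within 1 kb of the gene start for 44 of the 65 genes (67.7%), against 49.1% of all nuclear protein-coding genes. The median signal over those 44 genes was 13.3, against 13.4 over all 9798 genes with a row. Both medians leave out genes with no row. Replicate 1 had a row at 45 members (69.2%, against 49.0% of all genes) and replicate 2 at 42 (64.6%, against 49.9%). A row in both replicate lists was found at 29 members (44.6%, against 27.2%). At 15 members (23.1%, against 11.1%) the highest rows of both replicates also overlapped each other, where any shared base counted. At the other 14 the highest rows did not overlap, and lower rows were not compared.

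**Figure D1:**
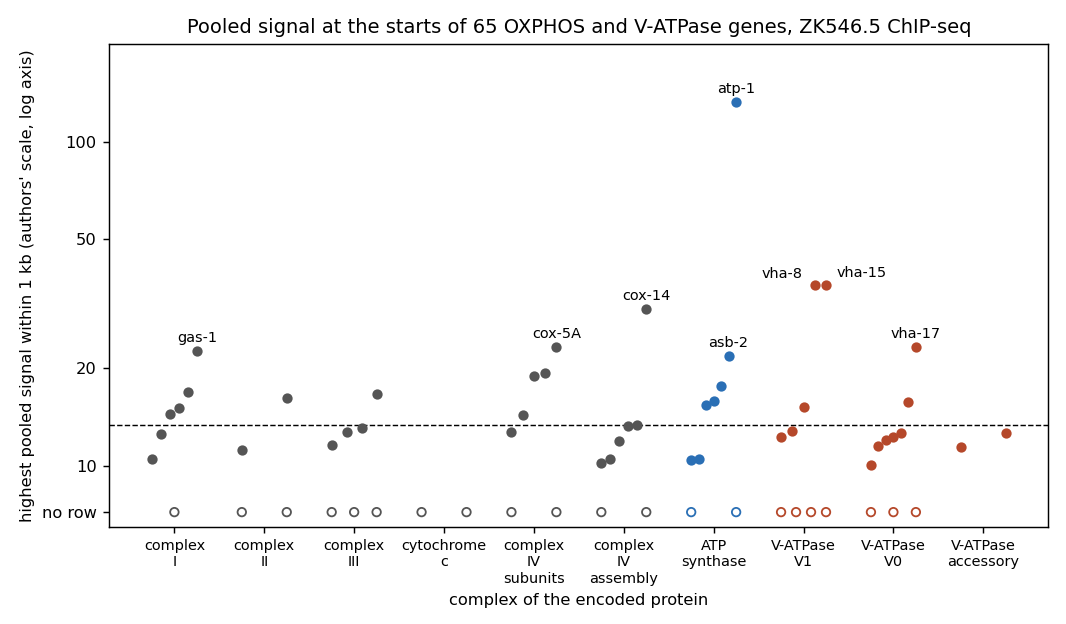
Highest pooled signal (authors' scale, log axis) within 1 kb of the start of each of the 65 genes, by complex; open circles have no row in the pooled list, and the dashed line is the median over all nuclear protein-coding genes with a row (13.4). The atp-1 region, at 132, stands above vha-15 and vha-8, at 36.2 and 36.1, and the rest lie between 10.05 and 30.5.

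As a ratio of shares, the members stood above all genes by more at the high ranks than for any row, while the difference in percentage points was larger for any row. In the pooled top 1000 were 8 members (12.3%), against 2.54% of all genes: atp-1, vha-15, vha-8, cox-14, vha-17, cox-5A, gas-1 and asb-2. In the pooled top 5000 were 13 of 65, against 10.5%. In the top 1000 of both replicates were 3 (4.62%), against 0.556%, and in the top 5000 of both replicates were 8 (12.3%), against 2.01%. Those 8 include cox-16, cox-5B and vha-9, whose highest rows did not overlap between the replicates. An IDR summit lay within 1 kb of 3 members (4.62%), against 0.466% of all genes: atp-1, vha-15 and vha-8, the same 3 as in the top 1000 of both replicates. These shares are descriptions over genes chosen with earlier results of these data known, with no test. The counts at the highest ranks rest on 3 to 8 genes. Among the top 92 regions of either replicate alone, only atp-1 was found, and the top 1000 held 3 members in replicate 1 alone and 7 in replicate 2 alone.

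**Figure D2:**
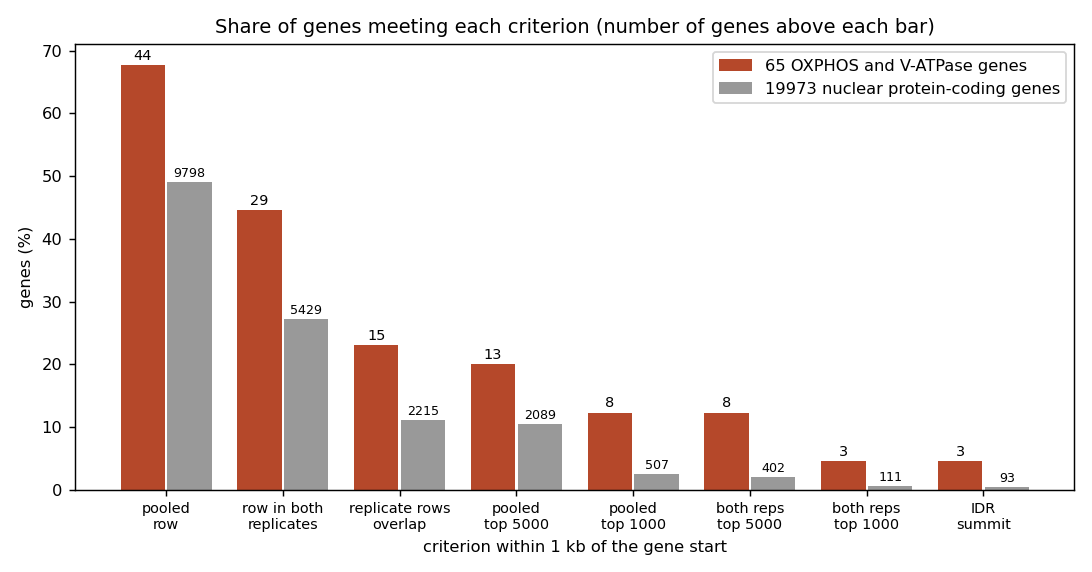
Percent of the 65 OXPHOS and V-ATPase genes (left bars) and of the 19973 nuclear protein-coding genes (right bars) that met each criterion within 1 kb of the gene start, with the number of genes above each bar. The share of members was higher in each of the 8 criteria, from 67.7% against 49.1% for any pooled row to 4.62% against 0.466% for an IDR summit.

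ATP synthase genes included the strongest member. At atp-1, which encodes the catalytic-core alpha subunit, the signal was 132 in the pooled list, 60.7 in replicate 1 and 68.9 in replicate 2. The ranks were 27, 40 and 23, so both replicates placed the region near the top of the list. The pooled signal was 10.4 times the median of its list, and the replicate signals were 6.76 and 10.8 times the medians of theirs. The pooled region covers 121 bp, on chromosome I from 12652210 to 12652330 on ce11. Its summit lies 28 bp downstream of the annotated start, and the summits of the replicates lie 3 bp apart. Among all nuclear protein-coding genes ordered by pooled signal, atp-1 came 32nd. The next gene upstream, mcrs-1, is on the opposite strand with a gap of 189 bp, and atp-1 has the nearest start to the summit.

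The V-ATPase genes vha-15 and vha-8, of the V1 sector, came next, both at the edge of the IDR set. At vha-15, which encodes an H subunit, the signal was 36.2 in the pooled list, 22.9 in replicate 1 and 16.1 in replicate 2, at ranks 90, 122 and 153. At vha-8, which encodes the E subunit of the stalk, the signal was 36.1, 18.2 and 16.8 in the same order, at ranks 91, 391 and 123. Both pooled ranks are among the last 3 of the 92 IDR regions, with signals 2.84 times the list median. Both summits lie upstream of the gene, by 283 bp at vha-15 and 266 bp at vha-8, and each gene has the nearest annotated start. The replicate summits lay 75 bp apart at vha-15 and 64 bp apart at vha-8. The next highest member, outside the IDR set, was cox-14, named after an assembly factor of complex IV known from yeast. Its signal was 30.5 in the pooled list, 15.03 in replicate 1 and 14.4 in replicate 2, at ranks 129, 1423 and 307. Its summit lies 175 bp upstream of cox-14 but 121 bp from the start of rde-4, which encodes a double-stranded RNA-binding protein of RNA interference. The 2 genes are divergent with a gap of 295 bp, so the region lies in a promoter that both share.

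The bases around the pooled summits of vha-15, vha-8, cox-14 and cox-5A are given as examples. Each window runs from 50 bp before to 50 bp after the summit, 5′ to 3′ in the direction of the gene. The bases are those of the RefSeq genome of the same build. The regions are chrX:2237578-2237678 for vha-15, chrIV:6790758-6790858 for vha-8, chrIII:10218717-10218817 for cox-14 and chrIII:12905156-12905256 for cox-5A, all read on the plus strand. Capitals mark the word ACCGTA or its reverse complement TACGGT. The windows of atp-1, vha-17, gas-1 and asb-2 are not printed. Of those, only the atp-1 window held the word, and vha-17 ranked above cox-5A in the pooled list. The printed windows therefore do not show how common the word is among the members.
vha-15: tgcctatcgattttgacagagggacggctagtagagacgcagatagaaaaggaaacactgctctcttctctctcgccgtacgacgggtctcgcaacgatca
vha-8: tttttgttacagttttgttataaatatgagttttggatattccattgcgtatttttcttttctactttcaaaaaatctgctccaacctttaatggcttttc
cox-14: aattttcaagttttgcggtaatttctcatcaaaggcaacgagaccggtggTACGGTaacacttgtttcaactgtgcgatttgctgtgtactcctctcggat
cox-5A: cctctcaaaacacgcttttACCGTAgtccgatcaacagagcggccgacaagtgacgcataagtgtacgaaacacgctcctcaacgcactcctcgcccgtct

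The windows differed in base composition. The GC content was 51.5% at vha-15 and 27.7% at vha-8, although the signals of both were nearly equal. It was 43.6% at cox-14, 54.5% at cox-5A and 53.5% at atp-1, against a median of 30.7% over all nuclear pooled regions. At vha-17, gas-1 and asb-2 it was 22.8%, 25.7% and 24.8%. The word ACCGTA on either strand lay within 50 bp of 6 of the 43 distinct member regions (13.95%), against 2.63% of the 29979 nuclear pooled regions. They were the regions of atp-1, cox-14, cox-5A, sdhb-1, cox-15 and cox-16. CCTGCA lay at 2 (4.65%, against 1.99%), atp-1 and sdhb-1, and ATCTAA at 5 (11.6%, against 5.85%). These 3 words were searched because they were frequent at IDR summits, of which atp-1 is 1, so its matches are no independent evidence. The member shares for ACCGTA and CCTGCA count the atp-1 region. The pooled regions include background regions and were not matched to the member regions by signal. CACGTG, the E-box core bound by the lysosomal regulator HLH-30, lay at 0 of 43, against 1.37% of all pooled regions. With 43 regions that is near the background. None of these words lay in the vha-15 or vha-8 window.

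The other ATP synthase genes were weak or unlisted. At asb-2, 1 of a pair of b subunit genes, the signal was 21.8 in the pooled list, 10.7 in replicate 1 and 10.8 in replicate 2, at ranks 948, 8050 and 1848. The highest row of replicate 1 did not overlap the pooled region there. Its paralogue asb-1, known for its role in the germline, had no row within 1 kb in any list. The g subunit genes also parted: asg-2 had a pooled signal of 17.6 and a replicate 2 signal of 11.6, at ranks 3585 and 1240, with no row in replicate 1. At asg-1 the signals were 15.8, 11.2 and 8.82 in the pooled list, replicate 1 and replicate 2, at ranks 6264, 6631 and 4947. The beta subunit gene atp-2 ranked 7217, 7951 and 10490 in the same order, with overlapping rows in both replicates. For atp-4 and atp-5 the pooled signals were 10.5 and 10.4, and at the OSCP gene atp-3 only replicate 2 had a row, at rank 20404. The alpha and beta subunits form the same catalytic ring, and their genes stood at signals of 132 and 15.4.

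None of the 27 respiratory chain genes in the set had a pooled signal as high as those of atp-1, vha-15 and vha-8. Of the 27, 17 had a pooled row (63.0%, against 49.1% of all genes), with a median signal of 14.5. In the pooled top 1000 were 2 (7.41%, against 2.54%). The highest was cox-5A, which encodes a structural subunit of cytochrome c oxidase, complex IV. It had signals of 23.2, 14.2 and 12.8 in the pooled list, replicate 1 and replicate 2, at ranks 620, 1979 and 678. Its summit lay 285 bp upstream of the start, and the rows of both replicates overlapped. At cox-5B the pooled signal was 19.4 at rank 2065, but the replicate summits lay 755 bp apart. At cox-6C the pooled signal was 18.9 at rank 2383, with a row in replicate 1 (14.8) and none in replicate 2. The remaining complex IV subunit genes with a pooled row, cox-6A and cox-4, had signals of 14.4 and 12.7. At cox-6B and cox-7C only replicate 2 had a row. The cox-6B record spans 87.2 kb and has a second transcript start at its other end. A pooled region of signal 21.8 ranked 957 there, with a summit 62 bp upstream. Replicates 1 and 2 ranked 11512 and 1926 at that start, with overlapping rows.

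In the pooled list, complex I and complex III each had 1 gene above the rest. At gas-1, the gene of a complex I core subunit of the electron path, the signal was 22.6 in the pooled list, 12.1 in replicate 1 and 7.53 in replicate 2. The pooled rank of 740 was not matched in the replicates, which ranked it 4852 and 9048. The summit lay 579 bp upstream of gas-1 and closer to usp-33, at 392 bp, and to the non-coding RNA gene K09A9.9, at 249 bp. The next in complex I was nuo-1, with a pooled signal of 16.9 at rank 4590 and replicate summits 661 bp apart. Of the other complex I genes, nuo-6, nuo-3, nuo-5 and nuo-4 had pooled signals of 15.03, 14.5, 12.5 and 10.5. At nuo-2 replicate 2 alone had a row, at rank 970 and 936 bp downstream of the start.

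In complex III the highest in the pooled list was ucr-2.1, 1 of 3 core 2 genes, with a signal of 16.7 at rank 4845. The summit was nearer to nmat-1. The replicates did not match that rank: at ucr-2.1 replicate 1 had a signal of 7.92 at rank 21043, and replicate 2 had no row. The paralogues ucr-2.2 and ucr-2.3 had pooled signals of 13.1 and 11.6. The Rieske protein gene isp-1 had 12.7, with no row in either replicate. The cytochrome c1 gene cyc-1, ucr-1 and ucr-11 had no pooled row. In complex II, sdhb-1, for the iron-sulphur subunit, had a pooled signal of 16.2 at rank 5520, and sdhd-1, for a membrane anchor, had 11.2. The flavoprotein genes sdha-1 and sdha-2 had no pooled row. The highest replicate row at sdha-1 was 10.2 in replicate 1, at rank 9613. At sdha-2 the rows were 7.13 in replicate 1 and 5.52 in replicate 2, at ranks 26758 and 21310.

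Cytochrome c, the mobile carrier between complexes III and IV, has 2 genes, and neither had a pooled row within 1 kb. In replicate 2 cyc-2.1 ranked 18127 and cyc-2.2 ranked 22284. An IDR region of signal 54.9 and rank 62 lay 1078 bp upstream of cyc-2.1, beyond the distance used. It was 150 bp from the start of Y17G9B.5. The gene next upstream of cyc-2.1 is rpl-20, a ribosomal protein gene on the same strand with a gap of 110 bp.

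Among the 8 assembly factor genes of complex IV, cox-14 stood alone. After it came cox-15, needed for making heme A, with pooled 13.4 at rank 12617, and cox-18 with 13.3 at rank 13140. The genes cox-19, cox-11 and cox-16 had pooled signals of 11.9, 10.5 and 10.2. At cox-16 the replicates ranked 1718 and 2127, above its pooled rank of 27624, but their highest rows did not overlap. At cox-10 replicate 1 alone had a row, at rank 25790, and at the copper chaperone gene cox-17 replicate 2 alone, at rank 5556.

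**Figure D3:**
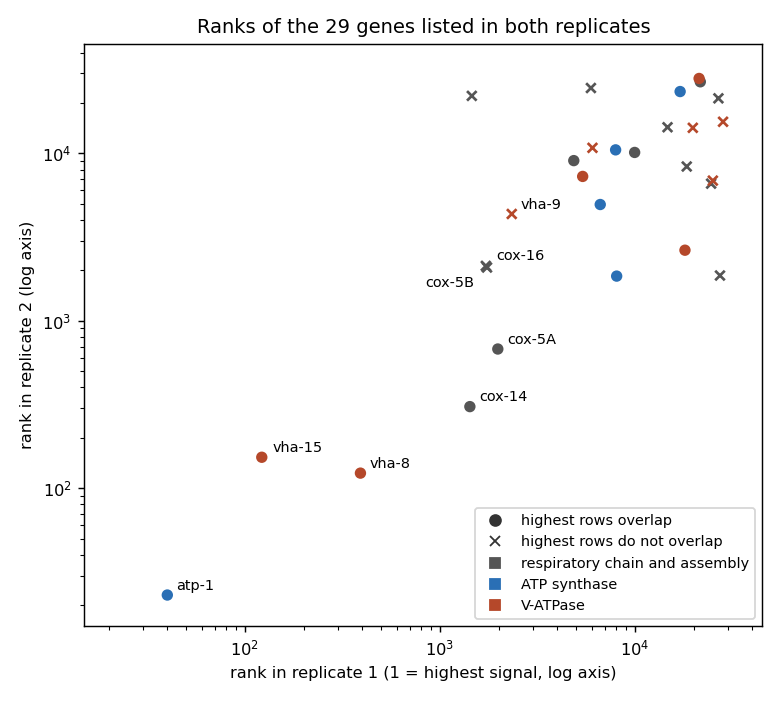
Rank in replicate 1 against rank in replicate 2 (log axes, 1 is the highest signal) for the 29 genes with a row in both replicates; circles are genes whose highest rows overlap between replicates, crosses those whose highest rows do not, coloured by complex. Near the origin lie atp-1 (40 and 23), vha-15 (122 and 153) and vha-8 (391 and 123), while most other genes lie beyond rank 5000 in at least 1 replicate.

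The V1 sector held both V-ATPase genes of the IDR set. Of the 9 V1 genes, vha-15 and vha-8 were in the IDR set and the next, vha-9 for the F subunit, had a pooled signal of 15.2 at rank 7599. At vha-9 the replicates ranked 2333 and 4344 but their highest rows did not overlap. The D subunit gene vha-14 and the C subunit gene vha-11 had pooled signals of 12.8 and 12.3. The catalytic A and B subunits are encoded by vha-13 and vha-12. At vha-13 replicate 2 alone had a row, at rank 7251, and at vha-12 no list had one. The G subunit gene vha-10 had a row in replicate 1 alone, at rank 25371. The second H subunit gene, vha-18, had no row in any list, while its paralogue vha-15 was in the IDR set.

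In the V0 sector the highest was vha-17, for the small e subunit. Its signals were 23.3 in the pooled list, 11.8 in replicate 1 and 8.01 in replicate 2, at ranks 603, 5389 and 7280. As at gas-1, the pooled rank was well above those of the replicates, whose rows overlapped with summits 134 bp apart. Among the a subunit genes, unc-32, known for its role in neurons, had a pooled signal of 11.5 at rank 20628 and vha-7 had 10.05 at rank 28663. The intestinal a subunit gene vha-6 had a row in replicate 1 alone, at rank 12571. At vha-5, known from the excretory canal and hypodermis, no list had a row. The c subunit genes vha-1, vha-2 and vha-3 had pooled signals of 15.7, 12.6 and 12.3. The region at vha-3 was the same as that at vha-11, which lies downstream of vha-3 on the same strand. The d subunit gene vha-16 had 11.98, and vha-4 had a row in replicate 1 alone, at rank 24664. The accessory genes vha-20 and vha-19 had pooled signals of 12.6 and 11.4; at vha-20 replicate 2 ranked 609 and replicate 1 had no row.

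Set side by side, a pooled row was found at 17 of 27 respiratory chain genes (63.0%), 7 of 9 ATP synthase genes (77.8%) and 14 of 21 V-ATPase genes (66.7%), against 49.1% of all genes. In the pooled top 5000 were 6 of the 27 (22.2%), 3 of the 9 (33.3%) and 3 of the 21 (14.3%), against 10.5% of all genes. The order of the 3 groups is not stable: in replicate 1 alone the counts were 6, 1 and 4, and in replicate 2 alone 4, 4 and 5. The 3 V-ATPase genes were all in the top 1000 as well, and the next of that group ranked 6494, while 4 of the 6 respiratory chain genes lay beyond rank 1000. Median pooled signals over genes with a row were 14.5, 15.8 and 12.6. The highest rows of both replicates overlapped at 4 of the 27 (14.8%), 5 of the 9 (55.6%) and 5 of the 21 (23.8%), against 11.1% of all genes, so the respiratory chain was close to that background. Any shared base counted: at asb-2 the rows shared only base 4469463, with summits 307 bp apart. At atp-4 the pooled summit lay 19 bp from the start of T05H4.11, and at vha-11 neither replicate row overlapped the pooled region. Differences between the 3 groups were not tested.

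No list had a row near 4 members (6.15%): asb-1, vha-5, vha-12 and vha-18. Over all nuclear protein-coding genes that share was 25.3%.

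Summits of the stronger regions lay mostly upstream, as they did over all genes. Of the 8 members in the pooled top 1000, 7 had the summit upstream of the start, by 175 to 579 bp, and atp-1 had it downstream. These 7 are 10.8% of the 65 members, and 1.79% of all 19973 genes had such a region upstream, which mostly restates the count in the top 1000. Among genes in the top 1000, an upstream summit was found at 7 of 8 members (87.5%), against 70.6% of all 507 such genes, which at 8 genes is near the background. Over all 44 members with a pooled row, 19 summits were upstream (43.2%), against 55.5% of all genes with a row. For 33 of the 44 the member itself had the nearest protein-coding start, and for 11 another gene did, cox-14 and gas-1 among them.

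**Figure D4:**
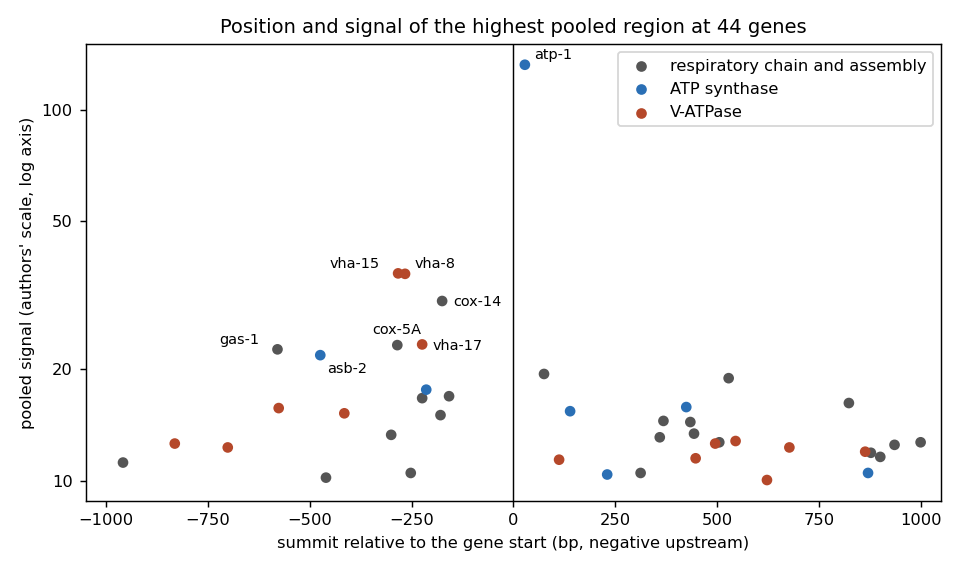
Distance of the pooled summit from the gene start (bp, negative upstream) against pooled signal (authors' scale, log axis) for the 44 genes with a pooled row, coloured by complex. The labelled genes are those of the pooled top 1000: atp-1 has its summit 28 bp downstream of the start, and the other 7 have theirs 175 to 579 bp upstream.

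The members differ in what lies upstream of them. The next protein-coding gene upstream was on the opposite strand for 35 members (53.8%), against 45.4% of all genes, and 11 of those 35 (31.4%) were in the pooled top 5000, against 10.9% of all genes so placed. For 13 of the 65 members, against 7.99% of all genes, it was on the same strand within 150 bp, a spacing common in worm operons. Of these 13, 0 were in the pooled top 5000, against 10.3% of all genes so placed, which at 13 genes is near the background. Chromosome X carries 9 members, of which vha-15, gas-1 and asb-2 were in the pooled top 1000. Over all X genes that share was 2.09%, and over all 65 members it was 12.3%. Chromosomes I, III and IV had 1, 2 and 2 members in the pooled top 1000, and II and V had 0. In replicates 1 and 2, gas-1 ranked 4852 and 9048, and asb-2 ranked 8050 and 1848. A difference between chromosomes was not tested.

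Some other genes of the pathway, outside the symbol rule, were near the background. The 20 listed were the nduf and coq genes with lpd-5, mev-1, mai-1, mai-2, hpo-18, sco-1 and clk-1. Of these 12 had a pooled row (60.0%, against 49.1% of all genes) and 3 were in the pooled top 5000 (against 10.5%). In the top 1000 and near an IDR summit were 0, against 2.54% and 0.466% of all genes, and with 20 genes these counts are near the background. The highest were coq-3, for a methyltransferase of ubiquinone synthesis, with pooled 19.8 at rank 1833, and coq-8 with 17.5 at rank 3754. Both had a row in replicate 1 and none in replicate 2. Next was nduf-7, for a complex I core subunit, with pooled 17.3 at rank 4026 and replicate ranks of 3235 and 639. At nduf-7 the highest rows of the replicates did not overlap, so those ranks belong to different regions. The anchor subunit gene of complex II mev-1 had a pooled signal of 14.3, with overlapping rows in both replicates. Counted apart, all 12 protein-coding genes of the mitochondrial genome had an IDR summit within 1 kb, with highest signals from 114.8 to 306. Windows of that size overlap heavily on that small molecule. Control libraries were not analysed here, and a dependence of these signals on the amount of mitochondrial DNA was not tested.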

How the data were processed

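ZK546.5 ChIP-seq was measured in 2 biological replicates, per the labels. The signal value of each region is the authors' and was set by their peak caller. The sources used here do not name its scale, the tools or the threshold of the IDR step. Per the README text, the deposited replicate and pooled lists were made from ChIP alignments and a control alignment, and the IDR list from those lists. No list holds read counts, so the depth is unknown. The lists on ce10 were not used.

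Regions on ce11 were joined to Ensembl release 115 genes of WBcel235, the same assembly, and sequences were read from the RefSeq copy of WBcel235. All listed regions end within the RefSeq chromosome lengths. Rank 1 is the highest signal of a list. A gene took the row of highest signal with its summit within 1 kb of the gene start, the 5′ end of its record. Members were given complexes by symbol. Members, lists and word searches were chosen with earlier results of these data known. Named genes are members with an IDR summit, in the top 1000 of the pooled list or of both replicates, with no row in any list, or among the 2 highest of each complex, and paralogue sets.

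There is 1 group, and genes are not replicates, so no test was run. Alternatives were the distance, the start used, overlap in place of the summit, the nearest start only, a stricter IDR cut and each replicate alone. The join was tested on simulated data. Python 3.11.15, pandas 2.3.3 and Matplotlib 3.10.9 were used.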

Additional observations from a re-analysis of the deposited data

How the results depend on the processing

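The members atp-1, vha-15 and vha-8 had an IDR summit under each join tried. An IDR summit was found at 3 members within 500 bp, from any transcript start and with the nearest start only, and at 4 within 2 kb and with overlap in place of the summit, where cyc-2.1 was added. Above the median signal of the IDR list it was found at 1, atp-1. By the top 92 regions of 1 replicate alone, the count was 1 to 1. Members with a row in both replicates fell to 15 within 500 bp, 18 with the nearest start only and 15 when the rows had to overlap (an alternative chosen after the data were seen), and rose to 49 within 2 kb; without 1 replicate the count was 42 to 45. Without replicate 2, 3 members were in the top 1000 in place of the 8 of the pooled list, and without replicate 1, 7; against the top 1000 of both replicates the range was also 3 to 7. Members in the top 5000 of both replicates numbered 5 within 500 bp and 4 with the nearest start only; without 1 replicate they numbered 14 to 15. Respiratory chain genes in the pooled top 5000 rose to 11 within 2 kb and 10 with overlap, and numbered 4 to 6 without 1 replicate. V-ATPase genes numbered 4 to 5 and ATP synthase genes 1 to 4 without 1 replicate. The median pooled signal of 13.3 moved to 15.3 within 2 kb and 14.7 with overlap. Replicate medians, 7.87 to 9.48, are on scales of their own. No paired analysis was possible because there is 1 group. Without depth, no counting error can be given.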
